A study of Mus musculus with 12 samples.

Results

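Gene expression under DMSO was compared between 3 cell lines from lymph node metastases (M1, M2 and M3) and 3 cell lines from primary liver tumours (T1, T2 and T3) of mice. These are the 6 DMSO libraries of a series of 12, and all of them were taken by their labels, with 1 library per line and the line as the replicate. The other 6 libraries are the same lines treated with the BRAF inhibitor PLX4720 and were not used. Every line is labelled as hepatocellular carcinoma with the genotype BRAFV600E and p53 knockout, which both groups share. The metastasis lines carry the tissue label of a metastasis and the primary lines that of a liver tumour. All cells were kept with DMSO, the solvent control of the treatment, for 48 h. Per the design text of the series, the mice expressed BRAFV600E in hepatocytes and lost Trp53 or Cdkn2a. The ages and sexes of the mice are not in the labels. Nor do the labels say whether any lines came from the same animal. M2, M3 and T3 share a number in the names of their deposited tables, and whether these 3 lines are independent is not known.

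Hepatocytes and bile duct cells arise from a common endodermal progenitor, and a small set of transcription factors, among them HNF4A and the FOXA proteins, keeps liver genes on. Both cell types are epithelial: they hold on to each other through cadherin junctions and desmosomes and build their inner skeleton from the keratin pair KRT8 and KRT18. In epithelial-mesenchymal transition such cells lose junctions and keratins and gain collagens and other fibroblast genes, with factors of the SNAI, ZEB, TWIST and PRRX families as the best known drivers.

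The labels were first checked against cell type markers. The metastasis lines, although labelled as hepatocellular carcinoma, held the liver factors Hnf4a and Foxa2 and the junction genes Cdh1 and Dsp under 1 CPM and the keratins Krt8, Krt18 and Krt19 under 10 CPM, while the collagen genes Col1a2 and Col3a1 were abundant. The primary lines held Hnf4a, Foxa2 and these keratins, but of the 20 hepatocyte function genes listed 11 stayed under 1 CPM in all 3 of them. The groups are therefore named by the site in their labels only. From which cell each line descends was not measured.

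Each library held 31992512 to 39288748 counted fragments over 47729 genes, and mitochondrial genes took 0.189% to 0.697% of them. Levels are given as CPM, counts per 1000000 fragments after TMM scaling, whose factors ran from 0.954 to 1.04. At these totals 1 fragment in a library is worth 0.0252 to 0.0302 CPM, so levels under 0.1 CPM stand for 3 fragments or fewer. The first principal component of log2(CPM + 1) held 66.1% of the variance and parted the sites, and the second held 11.4%. Any metastasis and primary library differed by more than 2 in log2(CPM + 1) in 1455 to 1725 of the 14992 genes tested. Libraries of the same site did so in 322 to 565 genes. Among the lines that share a number, M2 and T3 differed in 1469 genes, and M3 and T3 in 1455, the fewest of any pair across sites. M1 and T3, which do not share it, also differed in 1469. M2 and M3 differed in 322, the fewest of all pairs, against 425 to 565 in the other pairs within a site.

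**Figure D1:**
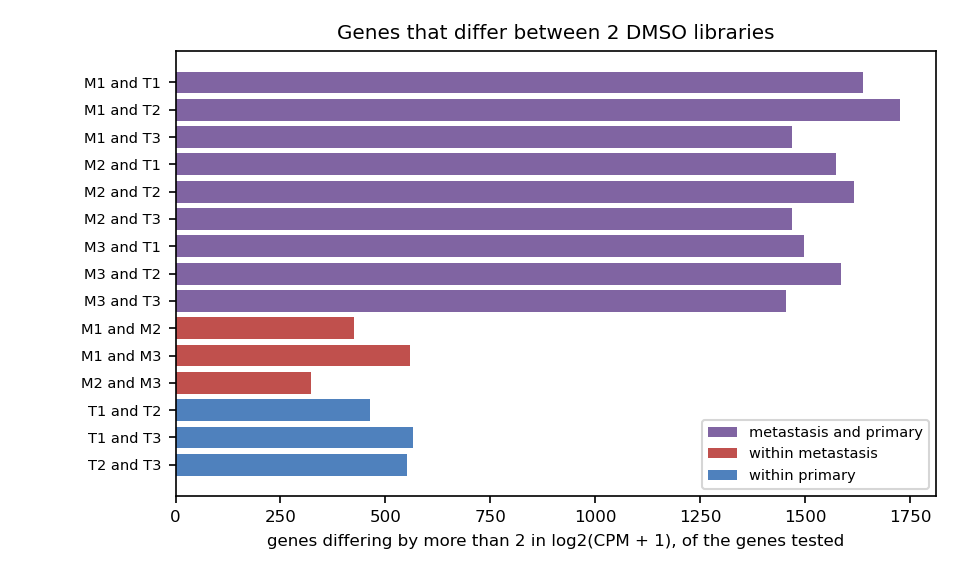
Number of tested genes, on the horizontal axis, that differ by more than 2 in log2(CPM + 1) between 2 DMSO libraries, for every pair of lines. The 9 pairs of a metastasis and a primary line stand at 1455 to 1725 genes and the 6 pairs within a site at 322 to 565.

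With edgeR's quasi-likelihood test and Benjamini-Hochberg adjustment over the 14992 genes tested, 1819 genes (12.1%) passed the threshold of 0.05. Of these, 696 (4.64%) were higher in the metastasis lines and 1123 (7.49%) were lower. In all 1819 the 3 metastasis libraries lay wholly above or wholly below the 3 primary libraries, whereas 33.3% of all genes tested had such groups. The change was at least 2-fold in size for 652 of the higher and 1081 of the lower genes, and the median log2 change over all genes tested was 0.00083. Protein coding genes made up 1659 of the genes called. With 3 lines a group the number of calls rests on the lines at hand: it was 901 without M2, 1155 without M3, 1174 without T2 and 1177 with M2 and M3 summed into 1 library. Of the calls made on all 6 lines, 847 were also made without M2 and 1083 with M2 and M3 summed. Below, a change is the log2 ratio of metastasis over primary lines (n = 3 lines each), and p is edgeR's adjusted p. The SE after ± is the size of the change over the square root of the test's F statistic. For genes near 0 in a site it does not give the precision of the fold. In a mixed culture, fewer cells of a type and less RNA per cell cannot be told apart.

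Liver and endoderm transcription factors were lower in the metastasis lines. Of 18 listed, 13 were tested, 11 were lower and 0 higher, with a median log2 change of -8.26 (-7.18 with genes at 0 in a group set to their bound). Of the 18, 15 were under 1 CPM in all metastasis lines and 3 in all primary lines. Members near 0 in the metastasis lines entered the test through the primary lines, and their shared direction follows from that. Hnf4a (chromosome 2, 163506808 to 163572910, plus strand, GRCm38), the nuclear receptor at the head of the hepatocyte programme, stood at 0.181, 0 and 0.201 CPM in M1, M2 and M3, against 139.6, 149 and 250.3 CPM in T1, T2 and T3. Foxa2, a pioneer factor that opens liver enhancers, stood at 0.151, 0 and 0 CPM in the metastasis lines, against 64.8, 23.3 and 78.01 CPM in the primary lines. Onecut2, a factor of liver and bile duct development, stood at 0, 0.0595 and 0.0574 CPM in M1, M2 and M3, against 42.6, 46.02 and 51.8 CPM in T1, T2 and T3. In all 3 genes the groups were far apart, with no metastasis library above 0.201 CPM and no primary library below 23.3 CPM. The log2 changes were -10.42 ± 0.82 for Hnf4a and -10.03 ± 1.18 for Foxa2 (edgeR adjusted p = 0.00157 and 0.00478). Onecut2 was lower too (adjusted p = 0.000920), with 4 fragments over the metastasis lines. Foxa1, of the same family as Foxa2, had no fragment in any metastasis library and 17.5, 9.44 and 11.7 CPM in T1, T2 and T3, which is at least 145-fold lower in metastasis lines against a floor of 3 fragments per library (adjusted p = 0.00334). Also lower were Foxa3, the cardiac and endodermal factor Gata4, and Hhex, needed for the liver bud (edgeR adjusted p = 0.00534, 0.00478 and 0.00517). Nr1h4, the bile acid receptor, and Nr0b2, the repressor it induces, were lower too. Without any 1 of the metastasis lines they missed the threshold (adjusted p = 0.0622, 0.0925 and 0.0771 for Nr1h4 and 0.0660, 0.0782 and 0.0696 for Nr0b2 without M1, M2 and M3), and Nr0b2 also without T1 or T3 (0.0715 and 0.0812). The tested members that did not pass were Cebpa and Gata6. Cebpa, a factor of liver and fat cells, overlapped between the groups, with 19.2, 9.14 and 3.24 CPM in M1, M2 and M3, against 1.71, 5.96 and 10.7 CPM in T1, T2 and T3. Gata6 had a log2 change of -2.78 ± 0.88 (adjusted p = 0.0970). Sox17, the endoderm factor, was too uneven to be tested, with 71.5 CPM in T1 and no fragment in any other library.

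Transcripts of mature hepatocyte products were scarce in both groups. Of the 20 listed genes 17 were too low to be tested, and 12 had no fragment in any metastasis library. Albumin (Alb), the main plasma protein made by the liver, had no fragment in M1, M2 or M3, against 7.59, 0.130 and 3.12 CPM in T1, T2 and T3. Apob, the core protein of the lipoproteins that the liver secretes, was the exception: it stood at 0.905, 0.179 and 1.72 CPM in M1, M2 and M3, against 619, 979 and 1204 CPM in T1, T2 and T3, a log2 change of -9.96 ± 0.91 (edgeR adjusted p = 0.00219). No metastasis library came near any primary library. Trf, which encodes the plasma iron carrier transferrin, was lower too (adjusted p = 0.00457), with 1 fragment over the metastasis lines. Ass1, of the urea cycle, ran the other way without passing: 51.1, 21.2 and 7.69 CPM in the metastasis lines, against 13.998, 0.0519 and 0.529 CPM in the primary lines (adjusted p = 0.428). Among oncofetal genes, which the fetal liver and some liver cancers express, 7 of 12 were tested and 2 were lower. Igf2bp1, an RNA-binding protein of fetal tissues, stood at 0.211, 0.446 and 0.918 CPM in the metastasis lines, against 11.4, 27.9 and 52.8 CPM in the primary lines (-5.86 ± 0.84, adjusted p = 0.00900). Peg3, an imprinted zinc finger gene, was the other, and missed the threshold without M1 (edgeR adjusted p = 0.0567). Alpha-fetoprotein (Afp) stood at 0.332, 0.179 and 2.90 CPM in the metastasis lines, against 13.3, 10.9 and 6.32 CPM in the primary lines, with no overlap but an adjusted p of 0.121.

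Keratins of simple epithelia were lower in the metastasis lines. All 7 listed were tested and 6 were lower. Krt8 (chromosome 15, 101996711 to 102004342, minus strand) stood at 1.15, 0.298 and 4.70 CPM in M1, M2 and M3, against 1906, 2325 and 3179 CPM in T1, T2 and T3. Its partner Krt18 stood at 1.84, 0.149 and 9.06 CPM in the metastasis lines, against 1889, 2473 and 3140.5 CPM in the primary lines. Krt19, a keratin of bile ducts and progenitors, stood at 5.31, 0.149 and 2.496 CPM in M1, M2 and M3, against 879, 818 and 880.5 CPM in T1, T2 and T3. M2 was the lowest line in all 3 genes, and every metastasis library stayed under 10 CPM while every primary library exceeded 800. The log2 changes were -10.23 ± 1.18, -9.40 ± 1.49 and -8.34 ± 1.19 (edgeR adjusted p = 0.00443, 0.0115 and 0.00881). Krt7, a duct keratin, was lower as well (adjusted p = 0.00882). Krt20 and Krt23 passed on all 6 lines but varied among the primary lines, with 397, 0.519 and 19.7 CPM of Krt23 in T1, T2 and T3. Krt20 missed the threshold without M1, M2 or M3 (edgeR adjusted p = 0.0504, 0.0916 and 0.0595), and Krt23 without M1, M2, M3, T1 or T3 (adjusted p = 0.126, 0.157, 0.143, 0.0519 and 0.0591). Krt80 did not pass (adjusted p = 0.0571).

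Cell junction and polarity genes were lower in the metastasis lines in 14 of the 17 tested, of 22 listed, and higher in 0. E-cadherin (Cdh1, chromosome 8, 106603351 to 106670246, plus strand), the adhesion molecule of epithelial adherens junctions, stood at 0.362, 0.0893 and 0.774 CPM in M1, M2 and M3, against 497, 447 and 371 CPM in T1, T2 and T3. Desmoplakin (Dsp), which ties keratin filaments to desmosomes, stood at 0.302, 0.0595 and 0.574 CPM in the metastasis lines, against 376, 302 and 535 CPM in the primary lines. Lsr, a protein of the corners where 3 epithelial cells meet, stood at 0.664, 0.327 and 0.402 CPM in M1, M2 and M3, against 84.8, 113 and 59.7 CPM in T1, T2 and T3. For each gene the lowest primary library stood far above the highest metastasis library. The log2 changes were -10.05 ± 0.75 for Cdh1, -10.32 ± 0.77 for Dsp and -7.52 ± 0.45 for Lsr (edgeR adjusted p = 0.00131, 0.00131 and 0.000920). F11r (a tight junction adhesion molecule), Cgn (cingulin, of the tight junction plaque), Patj and Crb3 (both of the Crumbs polarity complex) were lower, with adjusted p of 0.000989, 0.00163, 0.000920 and 0.00364. Desmoglein 2 (Dsg2), a desmosomal cadherin, had no fragment in a metastasis library, at least 234-fold lower (adjusted p = 0.00344). Plakoglobin (Jup) and periplakin (Ppl) fell less, by 3.84 and 4.17 on the log2 scale, and kept 21.5, 16.5 and 10.8 and 13.8, 5.45 and 7.09 CPM in M1, M2 and M3. Of the genes called, Tjp3 missed the threshold without M1, M2, M3 or T3 (edgeR adjusted p = 0.0983, 0.162, 0.129 and 0.0530). The 3 tested genes that did not pass were Cldn1, Ocln and Pkp3, and all 3 overlapped between the groups. In the lists of liver factors, keratins, junctions and epithelial regulators no member was higher at an unadjusted p under 0.05, nor by DESeq2 or limma-voom. Under 1 CPM in all metastasis lines were 15 of 18, 3 of 7, 16 of 22 and 13 of 14 listed members. Members near 0 there entered the test through the primary lines. The absence of higher members largely follows from that, whichever method is used. Of the wider list of cadherins and adhesion molecules 4 of the 15 tested, of 20 listed, were lower, among them Cdh17, a cadherin of liver and gut epithelium, with 0.211, 0.119 and 1.78 CPM in the metastasis lines, against 258, 310.1 and 156 CPM in the primary lines (edgeR adjusted p = 0.00697).

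**Figure D2:**
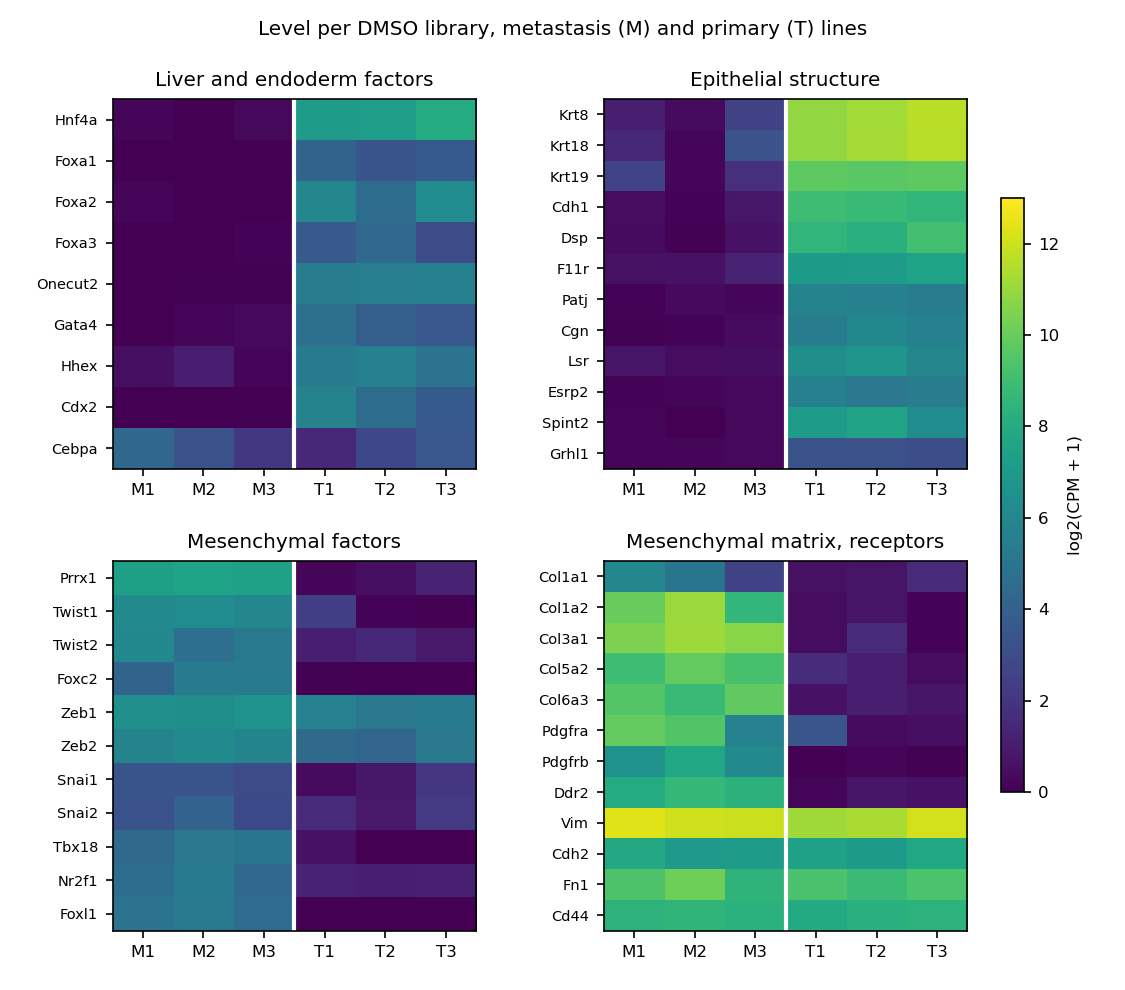
Level of 44 genes in each DMSO library as log2(CPM + 1), by colour, with metastasis lines M1, M2 and M3 to the left of the white line and primary lines T1, T2 and T3 to its right. Liver factors such as Hnf4a and epithelial genes such as Krt8 and Cdh1 are dark in all metastasis lines, while Col3a1, Ddr2 and Prrx1 are dark in all primary lines, and Vim, Cdh2, Fn1 and Cd44 are bright in both.

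Promoters of these junction and keratin genes are shown because many carry the letters CACCTG, the E-box that ZEB and SNAI repressors recognise. Windows run from 250 bases before to 50 bases after a start site (RefSeq, GRCm38.p6), both strands were searched, and CAGGTG is the same site read on the other strand. Of 16 junction and polarity genes matched to a window 13 (81.2%) held it, as did 4 of 5 simple keratins. Among all 27025 genes with a window the share was 22.6%, among genes tested 20.9%. It was 35.5% of 801 genes lower in the metastasis lines and 21.8% of 490 genes higher there, and it stood in 1 of 11 mesenchymal genes. It was also in 5 of 12 liver and endoderm transcription factors, 6 of 15 hepatocyte function genes and 4 of 7 epithelial regulators. Some genes have several windows, 1.44 on average for the junction list and 1.28 for genes tested. Among genes with a single window the shares were 7 of 10 junction genes, 31.2% of lower genes and 17.2% of genes tested. Mean GC content was 60.6% for the junction list and 60.8% for genes tested. The FOX letters TGTTTAC were in 0 of the 16 junction genes and 4.05% of all genes. A match describes letters and does not show binding. Below are 4 windows with E-box letters from genes lower in the metastasis lines, and that of Prrx1, a gene higher there, without them. Each is written 5′ to 3′ on the gene's strand with the E-boxes in capitals, and they were chosen after the matches were seen.
Lsr (chr7:30973420-30973719, minus strand): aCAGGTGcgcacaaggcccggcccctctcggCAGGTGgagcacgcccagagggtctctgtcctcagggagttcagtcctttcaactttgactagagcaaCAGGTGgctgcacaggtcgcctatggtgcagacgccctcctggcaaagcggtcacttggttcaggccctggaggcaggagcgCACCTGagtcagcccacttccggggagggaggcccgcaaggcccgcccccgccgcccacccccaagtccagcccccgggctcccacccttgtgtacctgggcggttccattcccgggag
Crb3 (chr17:57061951-57062250, plus strand): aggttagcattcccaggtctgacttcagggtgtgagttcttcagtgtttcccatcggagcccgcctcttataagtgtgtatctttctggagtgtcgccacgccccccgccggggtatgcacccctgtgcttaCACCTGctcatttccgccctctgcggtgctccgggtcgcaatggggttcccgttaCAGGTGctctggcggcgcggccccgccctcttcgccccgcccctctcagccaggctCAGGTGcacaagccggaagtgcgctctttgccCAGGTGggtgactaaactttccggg
Krt8 (chr15:102004293-102004592, minus strand): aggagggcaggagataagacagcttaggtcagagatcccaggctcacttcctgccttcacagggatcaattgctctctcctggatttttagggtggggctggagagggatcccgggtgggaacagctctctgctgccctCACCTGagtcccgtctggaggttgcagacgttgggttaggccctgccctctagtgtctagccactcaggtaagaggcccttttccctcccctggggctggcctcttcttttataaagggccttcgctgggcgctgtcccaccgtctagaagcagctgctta
Krt18 (chr15:102027966-102028265, plus strand): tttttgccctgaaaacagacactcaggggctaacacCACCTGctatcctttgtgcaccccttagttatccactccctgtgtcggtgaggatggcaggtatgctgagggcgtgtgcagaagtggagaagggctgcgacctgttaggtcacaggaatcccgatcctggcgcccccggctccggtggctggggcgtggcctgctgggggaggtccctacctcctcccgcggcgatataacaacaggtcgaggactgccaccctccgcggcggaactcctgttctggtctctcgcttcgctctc
Prrx1 (chr1:163313601-163313900, minus strand): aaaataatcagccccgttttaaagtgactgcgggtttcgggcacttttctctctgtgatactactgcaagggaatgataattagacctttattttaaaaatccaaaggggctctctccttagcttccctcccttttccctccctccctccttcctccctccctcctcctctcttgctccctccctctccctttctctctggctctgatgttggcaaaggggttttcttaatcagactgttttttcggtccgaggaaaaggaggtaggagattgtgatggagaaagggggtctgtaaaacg
Lsr and Crb3 hold 4 E-boxes each in these windows, and Krt8 and Krt18 hold 1 each. The FOX letters are in none of the windows printed.

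Regulators of the epithelial state were lower in 6 of the 8 tested, of 14 listed. Esrp2, a splicing factor that sets epithelial exon choice, stood at 0.0905, 0.119 and 0.229 CPM in M1, M2 and M3, against 51.5, 34.1 and 45.2 CPM in T1, T2 and T3 (-8.18 ± 0.48, edgeR adjusted p = 0.000920). Spint2, an inhibitor of surface serine proteases, stood at 0.121, 0 and 0.201 CPM in the metastasis lines, against 138, 189.5 and 78.6 CPM in the primary lines (-10.25 ± 0.86, adjusted p = 0.00174). In both genes all metastasis libraries were under 0.3 CPM and no primary library was under 30. Elf3, an ETS factor of epithelia, had no fragment in the metastasis lines and 67.9, 22.5 and 12.1 CPM in T1, T2 and T3, at least 386-fold lower (adjusted p = 0.0104). Grhl1, Ehf and Klf5, transcription factors of epithelial differentiation, were lower too. Ehf missed the threshold without M2 or M3 (adjusted p = 0.0626 and 0.0699) and Klf5 without M3 (adjusted p = 0.0557). Grhl2, which keeps Cdh1 on in many epithelia, was under 0.5 CPM in all 6 libraries and did not pass (adjusted p = 0.543). Genes of stratified epithelium were lower in 4 of the 7 tested, of 13 listed, and in 2 without M3. Sprr1a, of the cornified envelope, stood at 0.573, 0 and 0.488 CPM in the metastasis lines, against 47.3, 189 and 38.3 CPM in the primary lines (-8.003 ± 1.29, edgeR adjusted p = 0.0122), while Trp63, the factor of basal cells, stayed under 0.1 CPM in every library.

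Markers of bile ducts and progenitors, of the gut and of mesothelium were checked beside those of the liver. Biliary and progenitor genes were lower in 9 of the 12 tested, of 16 listed. Cd24a, a surface protein of progenitors, stood at 0.422, 0.0893 and 0.861 CPM in M1, M2 and M3, against 683, 387 and 380.4 CPM in T1, T2 and T3 (-10.03 ± 0.84, edgeR adjusted p = 0.00171). Tspan8, a tetraspanin of gut and liver epithelia, stood at 0.181, 1.61 and 1.43 CPM in the metastasis lines, against 602, 442 and 347 CPM in the primary lines (-8.75 ± 0.85, adjusted p = 0.00268). Both separated the groups fully. Cftr and Prom1 were called but not when M1, M2 or M3 was left out (adjusted p = 0.0921, 0.136 and 0.121, and 0.0546, 0.0776 and 0.0602), and Cftr also missed without T1 or T2 (adjusted p = 0.101 and 0.0526). Sox9, the duct and progenitor factor, overlapped between the groups with 28.6, 23.1 and 19.3 CPM in the metastasis lines, against 36.3, 9.77 and 23.7 CPM in the primary lines (adjusted p = 0.984). Osteopontin (Spp1) was abundant in both, with 4579, 9082 and 4877 CPM in the metastasis lines, against 1349.6, 4323 and 2469 CPM in the primary lines; the groups did not overlap, but it did not pass (adjusted p = 0.181).

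Genes of intestine and pancreas were lower in 4 of the 5 tested, of 16 listed. Cdx2, the factor that sets intestinal identity, stood at 0, 0.0298 and 0.0287 CPM in M1, M2 and M3, against 55.1, 23.5 and 11.8 CPM in T1, T2 and T3 (edgeR adjusted p = 0.00268), with 2 fragments over the metastasis libraries. Vil1, the brush border protein villin, stood at 0.181, 0.0893 and 0.115 CPM in the metastasis lines, against 16.6, 20.6 and 21.1 CPM in the primary lines (-7.21 ± 0.45, adjusted p = 0.000920). The primary lines thus held transcripts of liver, duct and gut epithelium in the same libraries, with T1 the highest for Cdx2 and T3 the lowest. Some gut genes marked single lines: Agr2, a secretory cell gene, stood at 86.7 CPM in T1 and under 0.1 CPM elsewhere, and Lgr5, a stem cell marker, at 28.02, 31.3 and 0.176 CPM in T1, T2 and T3. Mesothelin (Msln), known from mesothelium and several carcinomas, stood at 1.09, 0.119 and 2.12 CPM in M1, M2 and M3, against 514, 491 and 546 CPM in T1, T2 and T3 (-8.86 ± 0.97, adjusted p = 0.00368). The mesothelial factor Wt1 was found in T3 alone among the 6 libraries at above 0.1 CPM, with 0.0302, 0 and 0 CPM in the metastasis lines, against 0.0550, 0 and 43.3 CPM in the primary lines. Of 6 mesothelial genes tested, of 12 listed, 3 were lower and 1, Tbx18, was higher. Tbx18 missed the threshold without M2, M3 or T2 (edgeR adjusted p = 0.0724, 0.0603 and 0.0557).

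Transcription factors known to drive epithelial-mesenchymal transition were higher in the metastasis lines in 5 of 11, all of them tested, and lower in 1. Prrx1 (chromosome 1, 163245119 to 163313710, minus strand), a homeobox factor of mesenchyme, stood at 164, 184 and 174 CPM in M1, M2 and M3, against 0.165, 0.467 and 1.41 CPM in T1, T2 and T3 (7.98 ± 0.80, edgeR adjusted p = 0.00278). Twist2, a factor of dermal and skeletal mesenchyme, stood at 66.6, 25.95 and 37.1 CPM in the metastasis lines, against 1.16, 1.71 and 0.856 CPM in the primary lines (5.12 ± 0.51, adjusted p = 0.00284). Foxc2, a forkhead factor of mesoderm, stood at 17.3, 40.5 and 40.7 CPM in M1, M2 and M3, against 0.0550, 0.0259 and 0 CPM in T1, T2 and T3 (adjusted p = 0.00173), with 3 fragments over the primary libraries. In these 3 genes every metastasis library was far above every primary library. Zeb1 and Zeb2, repressors that bind E-boxes, differed by less: Zeb1 stood at 91.3, 88.8 and 96.5 CPM in the metastasis lines, against 53.1, 35.9 and 39.1 CPM in the primary lines (1.11 ± 0.21, adjusted p = 0.0186). Zeb2 stood at 55.3, 71.6 and 57.4 CPM in the metastasis lines, against 21.5, 18.1 and 35.9 CPM in the primary lines (1.29 ± 0.31, adjusted p = 0.0411). The primary lines therefore already held both. Zeb1 missed the threshold without M2, M3, T2 or T3 (edgeR adjusted p = 0.0627, 0.0607, 0.0557 and 0.0522), and Zeb2 without M1, M2, M3, T1 or T2 (adjusted p = 0.0743, 0.133, 0.0934, 0.117 and 0.105). Without M2, M3 or T2 the list had 3 higher genes. Snai1, Snai2 and Twist1 did not overlap between groups but did not pass. Twist1 stood at 70.1, 77.9 and 64.7 CPM in the metastasis lines, against 4.29, 0.104 and 0 CPM in the primary lines (adjusted p = 0.0888), Snai1 and Snai2 at adjusted p of 0.112 and 0.0700. Sox4 was lower (-0.78 ± 0.19, edgeR adjusted p = 0.0481), and missed the threshold without M1, M2, M3, T2 or T3 (adjusted p = 0.0806, 0.143, 0.137, 0.142 and 0.121).

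Mesenchymal genes were higher in the metastasis lines in 9 of the 19 tested, of 22 listed, and lower in 0. The count was 5 without M2 or without T2. Of the 22, 8 were under 1 CPM in all primary lines and 1 in all metastasis lines. Members near 0 in the primary lines entered the test through the metastasis lines, which fixed their direction. Col1a2 (chromosome 6, 4504814 to 4541544, plus strand), a chain of type I collagen, stood at 999, 2140.2 and 393 CPM in M1, M2 and M3, against 0.330, 0.674 and 0.101 CPM in T1, T2 and T3. Col3a1, the type III collagen of loose connective tissue, stood at 1379, 2221 and 1659 CPM in the metastasis lines, against 0.330, 1.996 and 0.101 CPM in the primary lines. Pdgfrb, the PDGF receptor of fibroblasts and pericytes, stood at 101, 225 and 71.7 CPM in M1, M2 and M3, against 0, 0.156 and 0.0503 CPM in T1, T2 and T3. M2 held the most of all 3 genes, and no primary library exceeded 2.00 CPM. The log2 changes were 11.63 ± 1.11, 11.07 ± 1.23 and 10.83 ± 0.96 (edgeR adjusted p = 0.00249, 0.00385 and 0.00215). Col1a1, the other chain of type I collagen, stood far lower than Col1a2 in each metastasis line, at 24.9, 12.5 and 1.92 TPM (transcripts per 1000000, a level per length) against 203.1, 436 and 80.8 TPM for Col1a2 in M1, M2 and M3. Col1a1 passed (adjusted p = 0.0299) but not without M1, M2, T1 or T2 (edgeR adjusted p = 0.0688, 0.0811, 0.0886 and 0.105). Loxl1, which cross-links elastin and collagen, and Mmp2, a collagen-degrading protease, were higher by 7.81 ± 1.01 and 7.04 ± 1.08 (adjusted p = 0.00638 and 0.0107). S100a4, Thy1 and Postn, the other genes called, each missed the threshold without M2 (edgeR adjusted p = 0.0972, 0.0633 and 0.0529) and without at least 2 other lines.

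Several markers widely used for a mesenchymal state did not separate the sites. Vimentin (Vim), the filament protein of mesenchyme, stood at 5238, 4208 and 3974 CPM in M1, M2 and M3, against 2268, 2646 and 4348 CPM in T1, T2 and T3 (0.53 ± 0.29, edgeR adjusted p = 0.306). N-cadherin (Cdh2) stood at 232, 129 and 138 CPM in the metastasis lines, against 171, 137 and 216 CPM in the primary lines (-0.07 ± 0.29, adjusted p = 0.912). Fibronectin (Fn1) and Cd44 had log2 changes of 0.32 ± 0.42 and 0.18 ± 0.18 (adjusted p = 0.697 and 0.603). In each of these 4 genes the groups overlapped, so the primary lines carried epithelial keratins together with high vimentin and N-cadherin. Pdgfra and decorin (Dcn) missed the threshold narrowly (adjusted p = 0.0509 and 0.0505), with wide spread in the metastasis lines: Pdgfra stood at 931, 715 and 53.7 CPM in the metastasis lines, against 9.74, 0.311 and 0.453 CPM in the primary lines.

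Among further matrix genes, fibrillar and network collagens were higher in 8 and lower in 1 of the 16 tested, of 17 listed, with 5 higher without M1 or M2. Col6a3 stood at 742, 442 and 894 CPM in M1, M2 and M3, against 0.578, 1.11 and 0.705 CPM in T1, T2 and T3 (9.75 ± 0.49, edgeR adjusted p = 0.000836) and Col5a2 at 501, 942 and 599.9 CPM in the metastasis lines, against 2.17, 1.11 and 0.327 CPM in the primary lines (9.14 ± 0.82, adjusted p = 0.00215). The collagen that was lower, Col27a1, missed the threshold without M1, M2, M3, T2 or T3 (adjusted p = 0.110, 0.113, 0.112, 0.0601 and 0.0535). Basement membrane genes were higher in 0 and lower in 6 of the 19 tested, of 21 listed, with a median log2 change of 0.08 and 10 positive changes. Lamb3, a chain of the laminin under stratified and ductal epithelia, stood at 0.0603, 0 and 0.143 CPM in the metastasis lines, against 21.2, 69.7 and 71.8 CPM in the primary lines (-9.56 ± 1.00, adjusted p = 0.00314). It was the member whose call held with each line left out. The count of lower basement membrane genes was 2 without M1, M2 or T3, 3 without T1 or T2 and 4 without M3, and without T3 2 members were higher. Collagen IV chains Col4a1 and Col4a2 overlapped (edgeR adjusted p = 0.945 and 0.947). Among proteases and their inhibitors 5 were higher and 2 lower of the 23 tested, of 24 listed. Timp1, an inhibitor of matrix metalloproteases, stood at 278, 407 and 403 CPM in the metastasis lines, against 23.8, 26.3 and 53.7 CPM in the primary lines (3.39 ± 0.39, adjusted p = 0.00434). Cathepsin L (Ctsl), a lysosomal protease, stood at 2212, 1818 and 2830.2 CPM in the metastasis lines, against 415, 383 and 700.4 CPM in the primary lines (2.19 ± 0.31, adjusted p = 0.00874). The higher count was 3 without M2, T1 or T3, and the lower ones, Plat and Plaur of the plasminogen system, were called in none of the 6 fits that left out a line (edgeR adjusted p of 0.0546 to 0.159 for Plaur and 0.0546 to 0.113 for Plat).

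Homeobox genes of the Hox clusters, which give cells along the body axis their positional code, differed by cluster. Of 39 Hox genes listed 22 were tested, 9 were higher in the metastasis lines and 1 was lower. In the D cluster all 3 tested genes were higher. The 9 listed Hox D genes summed to 0.110, 0.0519 and 0.0252 CPM in T1, T2 and T3. The 3 genes thus entered the test through the metastasis lines, and their shared direction follows from that. Hoxd8 (chromosome 2, 74704615 to 74707933, plus strand) stood at 108, 45.5 and 42.6 CPM in M1, M2 and M3, against 0.0275, 0.0519 and 0.0252 CPM in T1, T2 and T3 (edgeR adjusted p = 0.000920), with 4 fragments over the primary lines. Its neighbour Hoxd9 stood at 6.61, 3.87 and 6.97 CPM in M1, M2 and M3 with no fragment in the primary lines, at least 73.99-fold higher (adjusted p = 0.00461). Hoxd10 to Hoxd13, further along the cluster, stayed under 0.1 CPM in all 6 libraries, so the D cluster genes above 1 CPM in the metastasis lines were Hoxd4, Hoxd8 and Hoxd9. Hoxd4 missed the threshold without M3 or T2 (adjusted p = 0.0514 and 0.0550).

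All 5 tested genes of the Hox C cluster were higher. The 9 listed Hox C genes summed to 0.358, 0.0519 and 3.90 CPM in T1, T2 and T3. These genes too entered the test through the metastasis lines, and their shared direction largely follows from that. Hoxc6 stood at 19.5, 30.98 and 33.2 CPM in M1, M2 and M3, against 0.165, 0.0259 and 1.43 CPM in T1, T2 and T3 (5.67 ± 1.28, edgeR adjusted p = 0.0350) and Hoxc8 at 12.8, 15.9 and 17.04 CPM in the metastasis lines, against 0.0275, 0 and 0.327 CPM in the primary lines (6.95 ± 1.27, adjusted p = 0.0180). T3 was the primary line with the most of each tested Hox C gene. These calls were not stable: 2 of the 5 held without M1, 1 without M2, 0 without M3, 1 without T1, 2 without T2 and 5 without T3. In the B cluster Hoxb2 was higher (adjusted p = 0.00371). Hoxb6 and Hoxb7 split the metastasis lines, with Hoxb7 at 0, 24.5 and 21.6 CPM in M1, M2 and M3, against 2.28, 0.0519 and 0.604 CPM in T1, T2 and T3 (adjusted p = 0.289), and M1 had no fragment of Hoxb6, Hoxb7, Hoxb8 or Hoxb9. In the A cluster Hoxa10 was lower, and missed the threshold without M1, M2 or M3 (edgeR adjusted p = 0.0655, 0.102 and 0.0751). The lines differed in how many Hox genes they held at 1 CPM or more: 15 in M1, 17 in M2 and 14 in M3, against 9 in T1, 0 in T2 and 5 in T3.

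**Figure D3:**
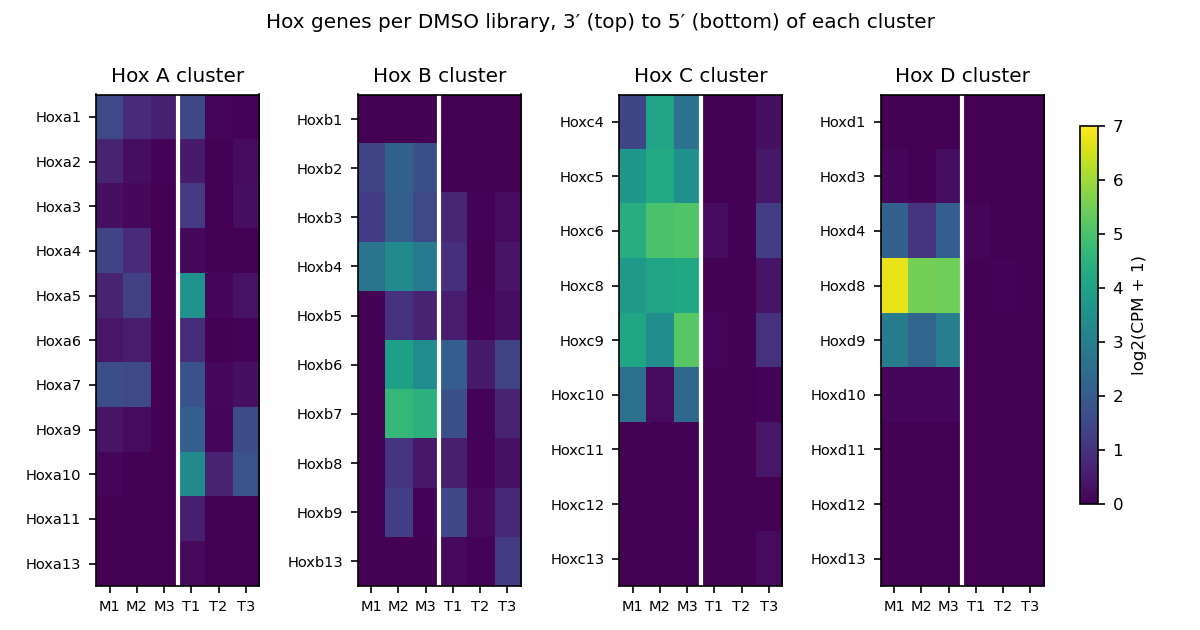
Level of the 39 Hox genes in each DMSO library as log2(CPM + 1), by colour, with one panel per cluster and metastasis lines left of the white line. Hoxc4 to Hoxc9 and Hoxd4 to Hoxd9 are brighter in metastasis lines than in primary lines, most of all Hoxd8 and least Hoxd4 in the D cluster. M1 is dark from Hoxb5 to Hoxb9 and T2 is dark throughout.

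Other factors that mark positions within mesoderm were higher in 10 and lower in 2 of the 27 tested, of 44 listed, with a median log2 change of 0.58. Nr2f1, a nuclear receptor of mesenchyme and neural tissue, stood at 24.7, 41.7 and 20.6 CPM in M1, M2 and M3, against 1.35, 1.14 and 1.21 CPM in T1, T2 and T3 (4.55 ± 0.39, edgeR adjusted p = 0.00190). Tbx15, a T-box factor of trunk mesenchyme, stood at 99.5, 46.04 and 152 CPM in the metastasis lines, against 10.9, 7.05 and 6.55 CPM in the primary lines (3.60 ± 0.50, adjusted p = 0.00788). In both the groups were well apart, and the 3 primary lines lay close together. Foxl1, a forkhead factor of gut mesenchyme that was not on the list, stood at 29.8, 37.8 and 22.3 CPM in M1, M2 and M3, against 0, 0.0259 and 0 CPM in T1, T2 and T3 (adjusted p = 0.00107), with 1 fragment over the primary lines. Those lower were Gata4 and Foxd1, a forkhead factor of kidney stroma, which stood at 0, 0.149 and 0.0287 CPM in the metastasis lines, against 18.01, 15.2 and 22.3 CPM in the primary lines (adjusted p = 0.00517). The count of higher genes fell to 6 without M2, 5 without T1 and 4 without T2, and the genes lost were among Tbx18, Foxf1, Osr1, Isl1, Shox2 and Meis1. Of these, Shox2 and Meis1, factors of limb mesenchyme, were each lost in 5 of the 6 fits that left out a line. Sox2, on the neural and pluripotency lists, stood at 46.3, 116 and 115 CPM in M1, M2 and M3, against 0.0275, 0.596 and 11.2 CPM in T1, T2 and T3 and did not pass (adjusted p = 0.137), while Pou5f1, Nanog and Sox10 stayed under 0.2 CPM in every library.

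Markers of cells that a liver tumour or a lymph node could contribute were looked up in every library. Of the leukocyte genes, Cd3e had no fragment, and Cd4, Cd8a, Itgam and Adgre1 were at 0.0503 CPM or less. The pan-leukocyte gene Ptprc stood at 0, 0.208 and 0.287 CPM in the metastasis lines, against 0.633, 0.181 and 0.277 CPM in the primary lines. Of 19 leukocyte and blood genes 3 were tested and 0 passed edgeR, against 1 higher and 1 lower both at an unadjusted p under 0.05 and by DESeq2 and 0 by limma-voom. Cd53, a leukocyte tetraspanin, stood at 31.7, 6.25 and 12.9 CPM in the metastasis lines, against 5.47, 1.35 and 2.74 CPM in the primary lines (2.41 ± 0.77, edgeR adjusted p = 0.101). Its groups did not overlap, and M1 was the highest. The adjusted p was 0.183 for Csf1r and 0.790 for Cd68. The summed level of the list was 9.61 to 35.2 CPM in metastasis lines and 6.82 to 15.6 CPM in primary lines. Lymph node stroma chemokines Ccl19, Ccl21a and Cxcl13 were at 0.126 CPM or less. Podoplanin (Pdpn), which marks lymph node reticular cells but also many other mesenchymal cells, stood at 96.8, 67.3 and 70.4 CPM in M1, M2 and M3, against 3.14, 0.389 and 2.39 CPM in T1, T2 and T3 (5.31 ± 0.77, edgeR adjusted p = 0.00905). Cd248, a pericyte and stromal surface protein, was higher too (adjusted p = 0.00931). Endothelial Pecam1, Erg, Tie1 and Emcn were at 0.362 CPM or less throughout, but other endothelial genes were expressed. The 14 listed summed to 61.9, 36.5 and 17.6 CPM in M1, M2 and M3, against 170.9, 43.5 and 12.7 CPM in T1, T2 and T3. Of these, 4 were tested, with 1 higher and 1 lower at an unadjusted edgeR p under 0.05. After adjustment 1 passed, the junction protein Esam, which was lower (edgeR adjusted p = 0.0160). That call was lost without M1, M2 or M3 (edgeR adjusted p = 0.0587, 0.0731 and 0.0543). Tek, the angiopoietin receptor, stood at 68.7 CPM in T1 and under 0.3 CPM elsewhere. The hepatic stellate cell genes Des, Lrat, Hand2, Lhx2 and Gfap were at or under 0.176 CPM in all 6 libraries. Reln and Rgs5 of the same list were present in primary lines. In log2(CPM + 1), the mean of M2 and M3 minus T3 was -1.04 for Rgs5 and 0 for Reln. For M1 minus the mean of T1 and T2 it was -0.91 and -1.06. Of the stellate and portal fibroblast list 7 of 19 were tested and 4 were higher, namely Pdgfrb, Acta2, Hgf and Thy1, with 2 of them left without M2, M3, T2 or T3. Acta2, the smooth muscle actin of contractile fibroblasts, stood at 158, 698 and 66.6 CPM in the metastasis lines, against 8.03, 0.363 and 0.629 CPM in the primary lines (adjusted p = 0.0449), and missed the threshold without M1, M2, M3, T2 or T3 (edgeR adjusted p = 0.0759, 0.107, 0.0611, 0.106 and 0.103). Myogenic factors Myod1, Myog and Myf5 had at most 1 fragment in any library. Of 6 muscle genes tested, of 16 listed, Acta2 and Tagln were higher and 0 lower. Tagln missed the threshold without M3, T1, T2 or T3 (edgeR adjusted p = 0.0524, 0.120, 0.130 and 0.103). At an unadjusted edgeR p under 0.05, 3 were higher and 1 lower. The listed muscle genes summed to 171, 829 and 90.2 CPM in M1, M2 and M3, against 46.8, 44.1 and 224 CPM in T1, T2 and T3. Tnnt2 ran the other way, by -5.46 in log2(CPM + 1) for the mean of M2 and M3 minus T3. For M1 minus the mean of T1 and T2 it differed by -2.09. Of neural genes 7 of 16 were tested and 1 was higher, Gap43, a growth cone protein, with 3.23, 1.40 and 1.89 CPM in the metastasis lines, against 0.303, 0.233 and 0.201 CPM in the primary lines (adjusted p = 0.0108). The share that fibroblasts from the tissue of origin may have in these cultures was not tested.

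**Figure D4:**
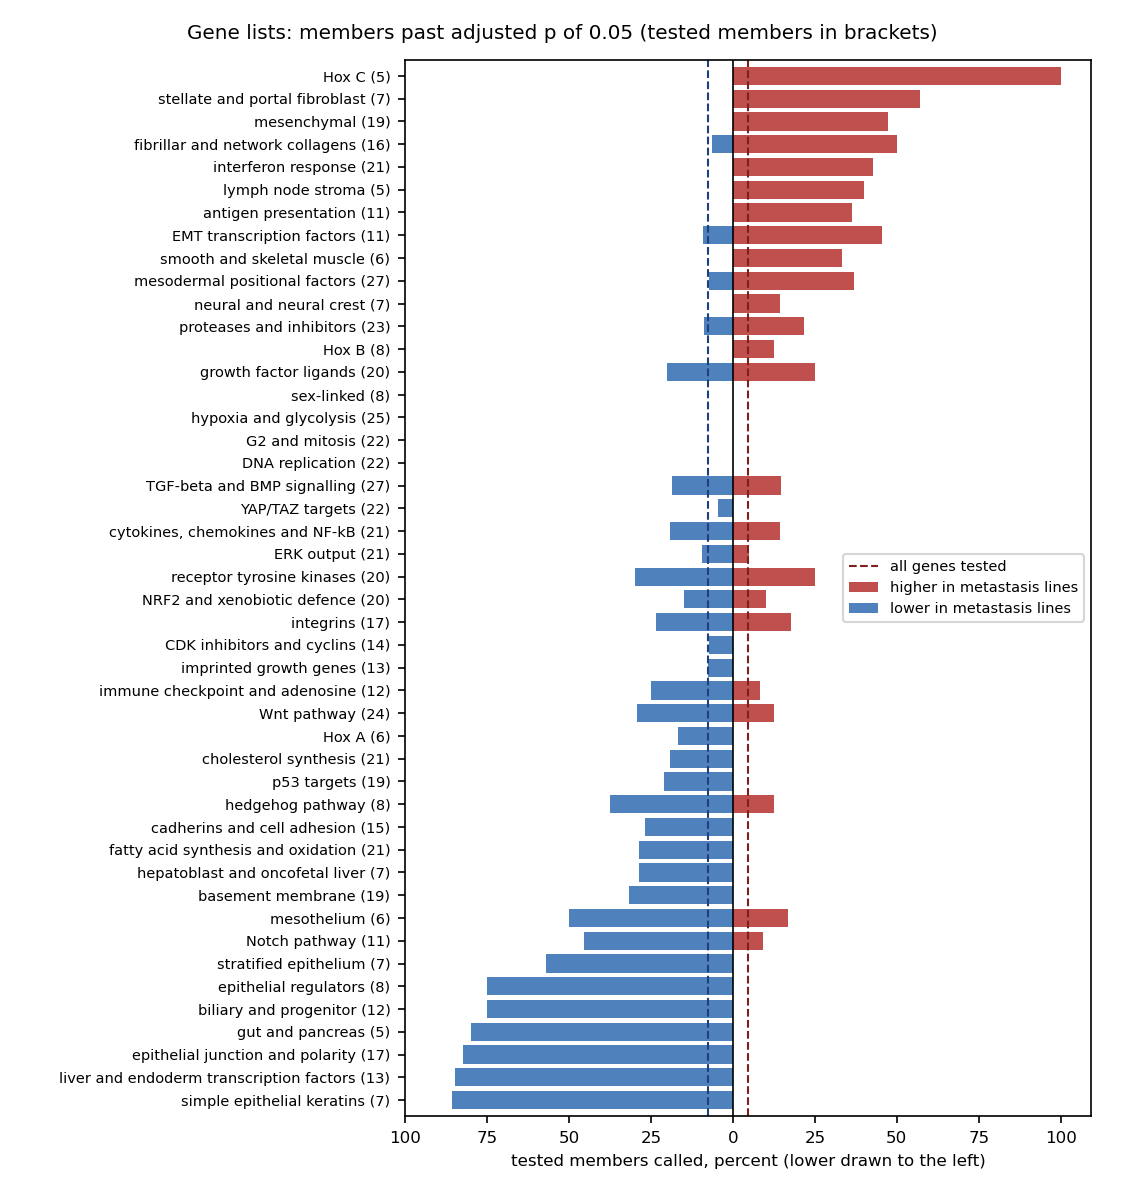
Percent of the tested members of each gene list that passed edgeR's adjusted p of 0.05, higher in the metastasis lines to the right and lower to the left, for lists with at least 5 tested members, whose number is in brackets. Dashed lines give the share over all genes tested, 4.64% higher and 7.49% lower. Epithelial and liver lists fill the left side and Hox C, mesenchymal and collagen lists the right.

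Receptor tyrosine kinases, the receptors upstream of RAS and BRAF, moved both ways: of 20 tested, of 24 listed, 5 were higher and 6 lower. ERBB receptors were lower in the metastasis lines. Erbb3, the partner of ERBB2, stood at 0.211, 0.0595 and 0.0861 CPM in M1, M2 and M3, against 21.2, 40.5 and 6.82 CPM in T1, T2 and T3 (-7.55 ± 0.94, edgeR adjusted p = 0.00567). Erbb2 stood at 12.3, 12.7 and 6.43 CPM in the metastasis lines, against 74.3, 71.1 and 41.6 CPM in the primary lines (-2.58 ± 0.38, adjusted p = 0.00918). Egfr was lower as well (-4.16 ± 1.03, adjusted p = 0.0473), but the call was lost without M2, M3, T1, T2 or T3 (adjusted p = 0.131, 0.0995, 0.0833, 0.0795 and 0.0996). The liver FGF receptor Fgfr4 fell to 1 fragment over the metastasis lines, against 42.5, 14.1 and 5.49 CPM in T1, T2 and T3 (adjusted p = 0.00573), and Fgfr3 was lower by 4.92 on the log2 scale. Among discoidin domain receptors, which bind collagen, Ddr2 was higher and Ddr1 lower. Ddr2 stood at 258, 408 and 327 CPM in M1, M2 and M3, against 0.165, 0.726 and 0.579 CPM in T1, T2 and T3 (9.38 ± 0.61, adjusted p = 0.000922), and Ddr1 at 32.05, 15.1 and 20.5 CPM in the metastasis lines, against 95.6, 162 and 132 CPM in the primary lines (-2.53 ± 0.35, adjusted p = 0.00821). No library of a site overlapped the other site for either gene. Of the TAM receptors Mertk and Tyro3 were higher (adjusted p = 0.00900 and 0.0317), Tyro3 not without any 1 of M1, M2, M3, T2 and T3 (edgeR adjusted p = 0.113 at the most), and Axl, with 972, 1065 and 1051 CPM in the metastasis lines, against 399.8, 483 and 912 CPM in the primary lines, did not pass (adjusted p = 0.189). Met, the HGF receptor, had a log2 change of -0.51 ± 0.21 (adjusted p = 0.191). Fgfr1 stood at 132, 138 and 135 CPM in the metastasis lines, against 0.138, 10.7 and 12.4 CPM in the primary lines and did not pass (adjusted p = 0.0835), with T1 far below T2 and T3.

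Growth factor ligands also moved both ways, with 5 higher and 4 lower of the 20 tested, of 22 listed. Fgf7, a ligand that mesenchyme sends to epithelium, stood at 89.6, 74.4 and 39.3 CPM in M1, M2 and M3, against 0.0825, 0.0259 and 0.0755 CPM in T1, T2 and T3 (edgeR adjusted p = 0.000920), with 7 fragments over the primary lines. Fgf10, of the same kind, stood at 9.54, 29.2 and 23.98 CPM in M1, M2 and M3 with no fragment in the primary lines, at least 266-fold higher (adjusted p = 0.00519). Hgf, the stromal ligand of MET, stood at 30.2, 31.6 and 7.34 CPM in the metastasis lines, against 0, 0.0259 and 0.0252 CPM in the primary lines (adjusted p = 0.00278), with 2 fragments over the primary lines. Tgfa, a ligand of the EGF receptor, ran the other way with 0.241, 0.0595 and 0.143 CPM in M1, M2 and M3, against 106, 65.6 and 79.6 CPM in T1, T2 and T3 (-9.11 ± 0.54, adjusted p = 0.000920). Pdgfb, a ligand of PDGFRB, stood at 0.151, 0 and 0.316 CPM in the metastasis lines, against 16.4, 77.3 and 83.98 CPM in the primary lines (-8.53 ± 1.19, adjusted p = 0.00824). For these ligands the groups did not overlap. Pdgfrb was thus higher in the metastasis lines and its ligand Pdgfb lower. Fgf2 and Fgf18 lost their calls without several lines, Fgf18 without M2 or T2 (adjusted p = 0.0865 and 0.0540) and Fgf2 without M1, M3, T1, T2 or T3 (adjusted p = 0.0544, 0.0668, 0.0842, 0.0730 and 0.0650).

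Integrins were higher in 3 and lower in 4 of the 17 tested, of 19 listed. Itgb6, the epithelial partner of ITGAV that activates latent TGF-beta, stood at 0.0603, 0 and 0.0287 CPM in M1, M2 and M3, against 67.2, 29.6 and 74.7 CPM in T1, T2 and T3 (edgeR adjusted p = 0.00131), with 3 fragments over the metastasis lines. Itgb8, the other integrin chain with that activity, stood at 4.68, 5.59 and 1.52 CPM in the metastasis lines, against 0.0825, 0.104 and 0.201 CPM in the primary lines (4.88 ± 0.72, adjusted p = 0.00918). Itgb4, which anchors epithelia to laminin, stood at 4.92, 3.21 and 3.10 CPM in the metastasis lines, against 84.5, 64.2 and 82.5 CPM in the primary lines (-4.36 ± 0.29, adjusted p = 0.000989). The metastasis lines were thus lower in Itgb6 and Itgb4 and higher in Itgb8 with no overlap. Without M1 or M3 2 integrin genes were lower.

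Of the TGF-beta and BMP genes 4 were higher and 5 lower of the 27 tested, of 30 listed, and the TGF-beta ligands did not pass. Tgfb2, named in the title of the series, stood at 2.90, 2.68 and 2.90 CPM in M1, M2 and M3, against 2.61, 2.85 and 2.04 CPM in T1, T2 and T3 (0.18 ± 0.35, edgeR adjusted p = 0.808), and all 6 lines lay within 1 CPM of each other. Tgfb1 and Tgfb3 had log2 changes of -0.96 ± 0.53 and 1.33 ± 0.84 (adjusted p = 0.311 and 0.387). Ltbp2, a matrix protein of the latent TGF-beta binding family, stood at 249, 305 and 81.1 CPM in M1, M2 and M3, against 0.110, 0.181 and 0.378 CPM in T1, T2 and T3 (9.86 ± 0.80, adjusted p = 0.00165). Tgfbr3, a co-receptor, stood at 107, 81.4 and 54.9 CPM in the metastasis lines, against 1.49, 0.467 and 2.16 CPM in the primary lines (5.88 ± 0.65, adjusted p = 0.00371), and Grem1, a secreted BMP antagonist, at 415, 787 and 797 CPM in the metastasis lines, against 0.110, 4.67 and 4.68 CPM in the primary lines (7.72 ± 1.27, adjusted p = 0.0128). The BMP-induced genes Smad6, Id1 and Id2 were lower by 3.07, 1.75 and 3.39 on the log2 scale. Id1 and Id2 missed the threshold without M2 or M3 (edgeR adjusted p = 0.0884 and 0.0771 for Id1, and 0.0669 and 0.0513 for Id2). Without M2 3 genes of the list were lower, and without M3 2.

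In the Notch pathway 1 gene was higher and 5 were lower of the 11 tested, of 18 listed. Jag1, the ligand needed for bile duct formation, stood at 12.4, 13.4 and 16.2 CPM in M1, M2 and M3, against 203.3, 297 and 373 CPM in T1, T2 and T3 (-4.38 ± 0.29, edgeR adjusted p = 0.000989). Jag2 stood at 0.0603, 0.208 and 0.832 CPM in the metastasis lines, against 51.3, 42.9 and 40.3 CPM in the primary lines (-6.91 ± 0.91, adjusted p = 0.00658) and the target Hes1 at 15.3, 8.84 and 14.7 CPM in the metastasis lines, against 133, 98.4 and 78.5 CPM in the primary lines (-2.995 ± 0.32, adjusted p = 0.00345). These 3 were lower with each line left out, while the receptor Notch1, the member that was higher, missed the threshold without M1, M2, T1, T2 or T3 (adjusted p = 0.0699, 0.0906, 0.0803, 0.0582 and 0.0706). Hey1 and Nrarp, the other lower genes, were lost in 5 of the 6 fits with a line left out each. The count of lower Notch genes was 3 without M1, M2, T1 or T3. In the Wnt pathway 3 were higher and 7 lower of the 24 tested, of 33 listed. Wnt7a, an epithelial Wnt ligand, had no fragment in the metastasis lines and 19.003, 27.04 and 12.7 CPM in T1, T2 and T3, at least 221-fold lower (adjusted p = 0.00314). Fzd8, a Wnt receptor, stood at 15.1, 17.3 and 12.2 CPM in the metastasis lines, against 0.275, 0.0778 and 0.403 CPM in the primary lines (5.86 ± 0.67, adjusted p = 0.00432). Dkk2, a secreted Wnt modulator, stood at 195, 805 and 599.7 CPM in the metastasis lines, against 12.8, 2.36 and 0.906 CPM in the primary lines (6.64 ± 1.22, edgeR adjusted p = 0.0182) and missed the threshold without M2 or T2 (adjusted p = 0.0555 and 0.0639). The count of lower Wnt genes was 2, 2 and 1 without M1, M2 and M3 and 3 without T1 or T2, that of higher genes 1 without M2 or T2. In the hedgehog pathway Dhh, a ligand, stood at 0.0603, 0.0298 and 0.0861 CPM in the metastasis lines, against 48.2, 11.5 and 35.1 CPM in the primary lines (adjusted p = 0.00215), with 6 fragments over the metastasis lines. Gas1, a co-receptor, stood at 79.3, 274 and 94.3 CPM in the metastasis lines, against 0.220, 1.79 and 0.0755 CPM in the primary lines (7.74 ± 1.30, adjusted p = 0.0139). The list had 1 higher and 3 lower of the 8 tested, of 13 listed.

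Interferon response genes were higher in 9 of the 21 tested, of 22 listed, and lower in 0, with a median log2 change of 4.56. Of the 22, 13 were under 1 CPM in all primary lines and 0 in all metastasis lines. Members near 0 in the primary lines entered the test through the metastasis lines, and their shared direction largely follows from that. Ifit1, which binds viral RNA, stood at 31.7, 4.49 and 89.4 CPM in M1, M2 and M3, against 0.0550, 0.156 and 0.176 CPM in T1, T2 and T3 (8.30 ± 1.31, edgeR adjusted p = 0.0115). Isg15, a ubiquitin-like modifier, stood at 6.46, 4.97 and 53.9 CPM in the metastasis lines, against 0.248, 0.207 and 0.176 CPM in the primary lines (6.67 ± 1.19, adjusted p = 0.0168). Irf7, a regulator of interferon genes, stood at 13.1, 3.81 and 133 CPM in the metastasis lines, against 1.38, 1.19 and 0.831 CPM in the primary lines and did not pass (adjusted p = 0.0515). M3 was the highest metastasis line and M2 the lowest in Ifit1, Isg15 and Irf7, and the summed level of the list was 296, 155 and 1388 CPM in M1, M2 and M3, against 95.9, 85.3 and 90.6 CPM in T1, T2 and T3. The count depended on the line left out: 2 without M1, 10 without M2, 6 without M3, 1 without T1, 1 without T2 and 2 without T3. Ifit1 was called in each of these fits, and Isg15 not without T1, T2 or T3 (edgeR adjusted p = 0.0571, 0.0645 and 0.0578). Antigen presentation genes were higher in 4 of the 11 tested, of 15 listed, namely the proteasome subunits Psmb8 and Psmb9, the peptide loader Tapbp and the peptidase Erap1. With any line left out 1 or 2 of these calls held. The MHC class I gene H2-K1 stood at 34.5, 55.6 and 637 CPM in M1, M2 and M3, against 164, 90.7 and 26.4 CPM in T1, T2 and T3 and did not pass (adjusted p = 0.536), with M3 above all other lines and M1 and M2 within the range of the primary lines. MHC class II genes H2-Aa and H2-Ab1 had at most 1 fragment in a library.

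Among cytokines, chemokines and NF-kB genes 3 were higher and 4 lower of the 21 tested, of 29 listed. Csf1, the macrophage growth factor, stood at 518, 1359.8 and 585 CPM in M1, M2 and M3, against 14.1, 61.1 and 123 CPM in T1, T2 and T3 (3.64 ± 0.83, edgeR adjusted p = 0.0368), and Ccl7, a monocyte chemokine, at 118, 19.02 and 14.6 CPM in the metastasis lines, against 0.138, 0.519 and 1.61 CPM in the primary lines (6.05 ± 1.29, adjusted p = 0.0289). Il1rn, the interleukin-1 receptor antagonist, stood at 1.12, 1.16 and 0.258 CPM in the metastasis lines, against 16.7, 28.5 and 123 CPM in the primary lines (-6.05 ± 1.05, adjusted p = 0.0156). The groups did not overlap in these genes, yet none of the 3 calls held without M2 (edgeR adjusted p = 0.102, 0.0560 and 0.0611). Csf1 was also lost without M1, M3 or T2 (adjusted p = 0.0635, 0.0716 and 0.122), Ccl7 without M1, T1 or T2 (0.0549, 0.0657 and 0.104) and Il1rn without M1 (0.0527). The count of higher genes was 1 without M2, T1 or T2, and that of lower genes 0 without M2 and 1 without M3. From the list of immune checkpoint and adenosine genes, 1 was higher and 3 lower of the 12 tested, of 18 listed. Ptges, the prostaglandin E synthase, stood at 217, 114 and 122 CPM in M1, M2 and M3, against 1.65, 1.94 and 2.06 CPM in T1, T2 and T3 (6.32 ± 0.36, adjusted p = 0.000920), with the primary lines within 0.5 CPM of each other. Its partner Ptgs2 overlapped between groups (adjusted p = 0.940). Nectin2, a ligand of lymphocyte receptors and a junction protein, stood at 23.2, 28.4 and 24.5 CPM in the metastasis lines, against 145, 144 and 107 CPM in the primary lines (-2.38 ± 0.20, adjusted p = 0.00188). Cd274, which encodes PD-L1, was under 1.6 CPM in every library (adjusted p = 0.546).

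Among genes of the cell cycle and of glycolysis 1 call was made on all 6 lines. Of 22 DNA replication genes, all tested, 0 passed edgeR, against 6 higher and 1 lower at an unadjusted p under 0.05, 1 higher and 1 lower by DESeq2 and 1 higher by limma-voom. Of 22 mitosis genes, all tested, 0 passed edgeR, against 4 higher at an unadjusted p under 0.05, 1 higher by DESeq2 and 0 by limma-voom. Mki67, the proliferation marker, stood at 431, 356 and 330.3 CPM in M1, M2 and M3, against 591, 439.7 and 457 CPM in T1, T2 and T3 (-0.41 ± 0.20, edgeR adjusted p = 0.251). Of 25 glycolysis and hypoxia genes, all tested, 0 passed edgeR, against 5 higher and 3 lower at an unadjusted p under 0.05, 3 higher and 1 lower by DESeq2 and 0 by limma-voom. Of cell cycle inhibitors and cyclins, 14 and all tested, Cdkn1b, which encodes p27, was lower (-1.06 ± 0.24, edgeR adjusted p = 0.0371), but not without M1, M2, M3, T1 or T2 (adjusted p = 0.0942, 0.0870, 0.117, 0.105 and 0.107). Without M3 4 of this list were lower. Cholesterol synthesis genes had 4 lower and 0 higher of 21, all tested and all with a negative log2 change (median -0.67), but 0 were called without M2 or M3, 1 without T2 and 2 without M1, T1 or T3. Me1, which makes NADPH for lipid synthesis, stood at 80.2, 78.2 and 60.2 CPM in the metastasis lines, against 341, 467 and 321 CPM in the primary lines (-2.37 ± 0.23, adjusted p = 0.00262). Fatty acid genes were lower in 6 and higher in 0 of the 21 tested, of 25 listed, and 2 were lower without M2, T1, T2 or T3 and 3 without M3. Cyp1a1, a xenobiotic-metabolising enzyme, was lower (-4.17 ± 0.53, adjusted p = 0.00597) and Srxn1, an antioxidant gene, higher (1.92 ± 0.30, adjusted p = 0.0109). In the list of NRF2 and xenobiotic genes 2 were higher and 3 lower of 20, all tested, with 1 higher without M2, M3 or T2 and 1 lower without M2.

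Transcripts that follow ERK activity, downstream of BRAF, were higher in 1 and lower in 2 of 21, all tested, close to the share over all genes. Etv1, an ETS factor induced by receptor signalling, stood at 26.7, 33.9 and 20.4 CPM in M1, M2 and M3, against 0.0275, 0.130 and 0.0503 CPM in T1, T2 and T3 (8.53 ± 0.64, edgeR adjusted p = 0.00131), and Epha4, an ephrin receptor, at 2.38, 1.16 and 0.172 CPM in the metastasis lines, against 123, 178 and 459.7 CPM in the primary lines (-7.68 ± 1.09, adjusted p = 0.00861). Dusp6, the ERK phosphatase, stood at 169, 194 and 183 CPM in the metastasis lines, against 342, 269 and 284 CPM in the primary lines (-0.71 ± 0.17, adjusted p = 0.0398), and this call was lost with each line left out (edgeR adjusted p of 0.0765 to 0.130). Braf itself stood at 22.6, 22.6 and 19.3 CPM in the metastasis lines, against 34.3, 24.5 and 19.4 CPM in the primary lines (adjusted p = 0.601). YAP/TAZ targets had 1 lower of 22, all tested, the adaptor gene Ajuba, lost without M2 (adjusted p = 0.0573), and 2 without M1, M3 or T1. Of the p53 targets, 19 and all tested, 4 were lower and 0 higher. Imprinted growth genes had 1 lower, Peg3, of the 13 tested, of 22 listed. Perp, a p53 target that is also a desmosome protein, stood at 0.332, 0 and 0.143 CPM in M1, M2 and M3, against 111, 84.8 and 181 CPM in T1, T2 and T3 (-9.61 ± 0.94, adjusted p = 0.00268), and Trp53inp1 at 2.90, 2.89 and 1.38 CPM in the metastasis lines, against 25.3, 54.9 and 21.4 CPM in the primary lines (-3.83 ± 0.53, adjusted p = 0.00824). Cdkn1a, the best known target, had a log2 change of -0.98 ± 0.42 (adjusted p = 0.198). Trp53, labelled as lost in both groups, stood at 4.92, 3.27 and 3.79 CPM in the metastasis lines, against 6.79, 4.59 and 5.01 CPM in the primary lines (adjusted p = 0.506). No library labelled as keeping the gene was analysed here, and the counts cover all its exons, so its loss was not tested.

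Among genes with at least 1 in mean log2 CPM, the largest fitted increases included the following genes. Colec12, a scavenger receptor, stood at 235, 292 and 215 CPM in M1, M2 and M3, against 0.0550, 0.259 and 0 CPM in T1, T2 and T3 (11.16 ± 0.89, edgeR adjusted p = 0.00163). Mrc2, a collagen uptake receptor, stood at 244, 292 and 228 CPM in the metastasis lines, against 0.0275, 0.285 and 0.101 CPM in the primary lines (10.81 ± 0.67, adjusted p = 0.000920), and Ptgfr, the receptor of prostaglandin F, at 44.7, 201.6 and 106 CPM in the metastasis lines, against 0.0275, 0.0519 and 0.0755 CPM in the primary lines (adjusted p = 0.00146), with 6 fragments over the primary lines. Their metastasis libraries held at least 44.7 CPM and their primary libraries at most 0.285 CPM. Genes with no fragment in any primary library included A4galt, a glycolipid synthase, at 55.2, 8.93 and 12.9 CPM in M1, M2 and M3, which was at least 327-fold higher (adjusted p = 0.0136). Esm1, Thy1, Gria1, Dchs1, Mgp and Rem1, also among the largest, varied widely among the metastasis lines, and each missed the threshold with at least 1 line left out (edgeR adjusted p without T1 of 0.0740 for Esm1, 0.0706 for Thy1, 0.0938 for Gria1, 0.0663 for Mgp and 0.0749 for Rem1, and without M2 of 0.0589 for Dchs1).

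The largest fitted decreases included Il22ra1, Pklr and Fermt1. Fermt1, the kindlin that activates integrins in epithelia, stood at 0, 0 and 0.0861 CPM in M1, M2 and M3, against 183, 113 and 158 CPM in T1, T2 and T3 (edgeR adjusted p = 0.000920), with 3 fragments over the metastasis lines. Il22ra1, the interleukin-22 receptor of gut and liver epithelium, had no fragment in a metastasis library and 23.6, 24.1 and 47.4 CPM in T1, T2 and T3, at least 358-fold lower (adjusted p = 0.00284). Pklr, the pyruvate kinase of liver and red cells, had none either and 24.9, 34.6 and 20.04 CPM in T1, T2 and T3, at least 299-fold lower (adjusted p = 0.00219). Among the most abundant transcripts per length, 8 of the 10 highest nuclear protein coding genes were the same in both groups, led by Lgals1, Eef1a1 and Spp1 in the metastasis lines. Krt18 was among the 10 highest in the primary lines only. Galectin 1 (Lgals1) stood at 5351, 4819.6 and 2438 CPM in the metastasis lines, against 1007, 1056 and 1885 CPM in the primary lines (1.68 ± 0.39, adjusted p = 0.0398), a call lost without M1, M2, T1 or T2 (edgeR adjusted p = 0.0959, 0.118, 0.111 and 0.122).

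The lines of a site were not alike, and some differences concern whole loci. Cdkn2a (chromosome 4, 89274471 to 89294653, minus strand), which encodes the tumour suppressors p16 and ARF, stood at 0.151, 0 and 226 CPM in M1, M2 and M3, against 78.2, 130.1 and 162 CPM in T1, T2 and T3. Its neighbour Cdkn2b, encoding p15, stood at 0.0302, 0 and 84.1 CPM in the metastasis lines, against 39.1, 76.1 and 70.8 CPM in the primary lines. M1 and M2 held 5 and 0 fragments of Cdkn2a, while M3 was above all primary lines. Mtap, a neighbour whose annotated end lies before the start of Cdkn2a, stood at 98.4, 578 and 356 CPM in the metastasis lines, against 241, 232 and 244 CPM in the primary lines, so its transcripts were kept in M1 and M2. Neither Cdkn2a (edgeR adjusted p = 0.883) nor Cdkn2b (adjusted p = 0.797) passed for the sites with this spread. Sex-linked genes parted the lines across sites. Xist, the RNA of the inactive X chromosome, stood at 71.4, 0.0298 and 0.201 CPM in M1, M2 and M3, against 45.1, 79.7 and 0.151 CPM in T1, T2 and T3. The Y-linked Ddx3y stood at 0, 166 and 136 CPM in the metastasis lines, against 0.0275, 0.104 and 44.8 CPM in the primary lines. Xist was high in M1, T1 and T2, and the Y-linked genes Ddx3y, Eif2s3y, Kdm5d and Uty were high in M2, M3 and T3, the lines whose table names share a number. Sex and origin of the lines therefore cut across the comparison of sites, and their part in other results was not tested.

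The comparison was also read separately for the lines that share a number and for the others. All 1819 genes called had the same sign in the mean of M2 and M3 minus T3 and in M1 minus the mean of T1 and T2, as the call on groups without overlap requires. A difference of more than 1 in log2(CPM + 1) was found in 3187 genes tested between M2 with M3 and T3, and in 3866 between M1 and T1 with T2. Of these, 1882 had it in both with the same sign and 166 with opposite signs. Genes with the widest gap between 1 line and the rest of its site included Zic1, a zinc finger factor of neural development, with 64.1, 0 and 0 CPM in the metastasis lines, against 0, 0 and 0 CPM in the primary lines, Tm4sf1, a tetraspanin-like surface protein, with 674, 1648 and 338 CPM in the metastasis lines, against 0.468, 0.933 and 982 CPM in the primary lines, and the peptide gene Nts, with 0.0905, 0.0298 and 0.631 CPM in the metastasis lines, against 2.67, 598 and 0.403 CPM in the primary lines. Tm4sf1 was high in T3 and all metastasis lines and under 1 CPM in T1 and T2.

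Levels also shifted by chromosome in single lines. Over 513 genes of chromosome 8 with at least 10 CPM on average, the median log2 deviation from the median of the 6 libraries was -0.85 in M1, against -0.06 to 0.14 in the other 5 lines. On chromosome 14 it was -0.59 in M1 over 299 genes, and on chromosome 3 it was 0.68 in M2 over 472 genes. All other medians on the autosomes and X lay between -0.36, on chromosome 14 in T3, and 0.29, on chromosome 3 in M3. By site, the share of tested genes that were higher was 9.39% on chromosome 12, 8.67% on chromosome 13 and 8.17% on chromosome 3, against 4.64% over all genes, and the share lower was 11.7% on chromosome 19, against 7.49%. DNA copy number was not measured.

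**Figure D5:**
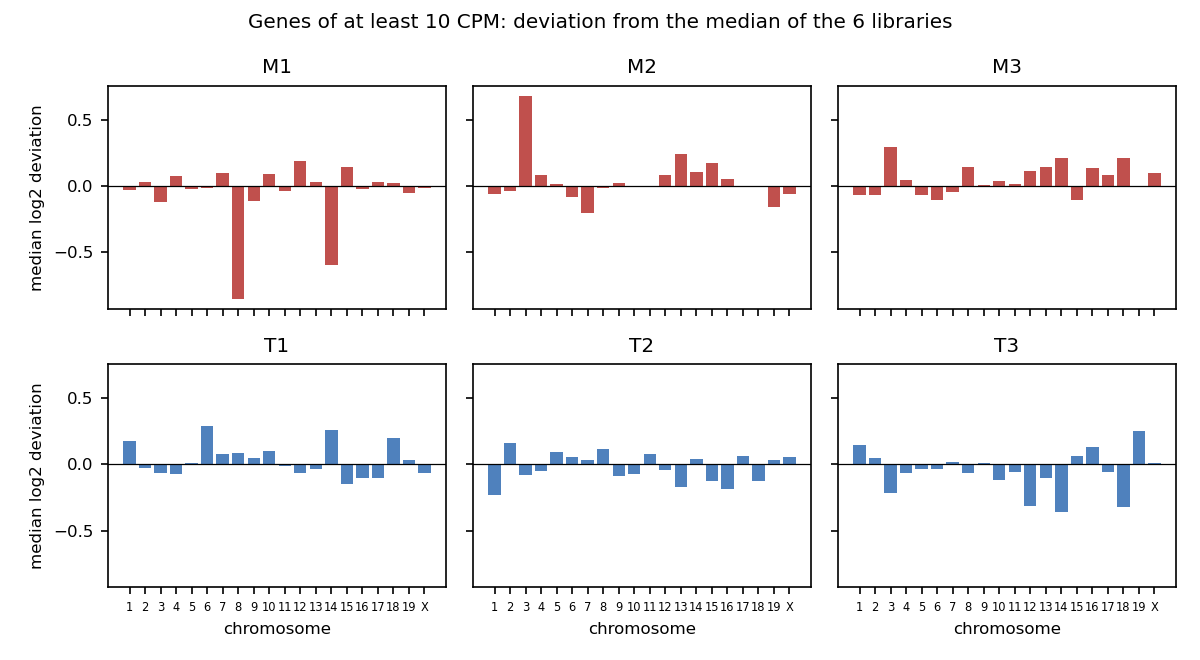
Median log2(CPM + 1) deviation of each DMSO library from the median of the 6 libraries, on the vertical axis, over the genes of each chromosome with at least 10 CPM on average, with metastasis lines in the upper row. Chromosomes 8 and 14 stand at -0.85 and -0.59 in M1 and chromosome 3 at 0.68 in M2.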

How the data were processed

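RNA of 6 cell lines kept in DMSO was sequenced from ribosome-depleted stranded libraries, per the labels' protocols. Raw fragment counts per Ensembl gene were deposited; per the file headers the authors ran featureCounts 1.5.2 on read pairs over exons of GRCm38 (annotation release 84). No source used here names the aligner. The header command has no strand option, so genes that overlap on opposite strands cannot be told apart, and neither can near-identical copies. Of 47729 genes, 47224 were matched to a symbol. Tests ran on these counts in edgeR 4.0.16 (R 4.3.3): filterByExpr, TMM scaling and the quasi-likelihood test of metastasis against primary lines without covariates, with Benjamini-Hochberg adjustment over 14992 genes, a threshold of 0.05 and 4 residual degrees of freedom. A gene expressed in 1 site alone could pass filterByExpr. For genes near 0 in the other site, the direction was then fixed by entering the test. The steps were tested on simulated data. TPM was computed from the counts and the gene lengths in the tables. Principal components, pairs of lines and chromosome medians used log2(CPM + 1). For a single gene the smallest exact two-sided permutation p with 3 lines a group is 0.1.

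Members of the 51 gene lists (886 genes) and the comparisons were chosen with earlier results of these data known. Genes were named by rule: the 25 largest changes in each direction among called genes without overlap, the first 4 and the 4 smallest p of each list, the 10 highest TPM and the 5 widest gaps per line. Other named genes are list members picked after their values were seen, and some members are not reported here. The lines are the replicates; no label says that they came from separate mice, so p-values measure the spread between these lines. Depth limits low genes: a count of 0 allows up to 3 fragments, or 0.0755 to 0.0905 CPM, counting error only. Lines with the same number in their titles did not deviate together, with correlations of -0.06, 0.00 and -0.10. This measure cannot tell whether lines came from the same animal, and the main fit used no pairing. Alternatives were DESeq2 1.42.0, limma-voom (limma 3.58.1), other scalings and filters, glmTreat, a replicate block, M2 and M3 summed, and each line left out. Promoters came from RefSeq tables of GRCm38.p6.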

Additional observations from a re-analysis of the deposited data

How the results depend on the processing

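Of 1819 genes called (696 higher and 1123 lower in the metastasis lines), leaving out 1 line gave 901 to 1595 calls, with 377 to 640 higher and 524 to 955 lower; 847 to 1299 of them were among the calls on all lines. DESeq2 called 3321 genes (1314 higher, 2007 lower), and 1790 were shared. Summing M2 and M3 gave 1177 (524 and 653), glmTreat for at least a doubling 1143 (412 and 731). Whether the line numbers pair samples is not known, and a replicate block gave 1106 calls (412 and 694), of which 1025 were shared. The other scalings and filters and limma-voom stayed within 1.5 times of each count, and no scaling moved the median of all genes by more than 0.05 on the log2 scale. Of 192 named genes called, 114 kept their call in every alternative and 117 with each line left out, and 0 changed sign. Their groups did not overlap, so no change of sign was to be expected with a line left out. Many were named for a small p or a large change, so these shares do not describe all calls. Prl2c2, not called on all lines (log2 change 2.34), reversed to -4.35 without M1 and was then called (edgeR adjusted p = 0.0224), while the other fits with a line left out reached up to 2.92. M1 held 304 CPM of it. With a line left out, called members ranged from 9 to 11 of the liver factors, 13 to 14 of the junction genes, 4 to 6 of the keratins, 5 to 9 of the mesenchymal genes, 5 to 10 of the collagens, 0 to 5 of Hox C and 1 to 10 of the interferon genes. At 31992512 to 39288748 fragments a library, a level under 0.1 CPM stands for 3 fragments or fewer. Folds against such levels are uncertain in size, including those printed with an SE.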
